A study of Mus musculus with 6 samples.

Results

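The type I interferon response was followed through 34 genes in macrophages of mice that overexpress angiotensin-converting enzyme (ACE), the peptidase that produces angiotensin II. The genes were taken by symbol from a list of 34 names, which holds both chains of the interferon receptor, factors that carry its signal and genes that type I interferon induces. All 34 were found, each on 1 row, among 25509 gene rows. Poly-A RNA had been sequenced from 3 Tg-ACE and 3 wild-type (WT) samples, all on the C57BL/6 strain. Tg-ACE is described as an ACE-overexpressing line, and its sample names carry the further tag JWT, which is not explained. The promoter that drives the transgene and the ages of the mice are not given in the labels. All cells were peritoneal macrophages drawn out by thioglycollate, an irritant, taken on day 4, separated on a Percoll density gradient and harvested as the cells still attached after 2 h in culture medium. Replicate 1 of each genotype belongs to an experiment coded Exp-156 in the labels, and the other replicates (2 and 3) to one coded Exp-156b. The labels do not explain the codes, and nothing in them says that the replicates were separate mice, so the p-values cover only how much these samples vary, and that variation may be technical.

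Type I interferons (interferon beta and the interferon alpha family) bind a receptor made of the chains IFNAR1 and IFNAR2. Kinases on the receptor then activate STAT2, which enters the complex ISGF3 together with IRF9, and ISGF3 binds interferon-stimulated response elements (ISREs) in the promoters of a large set of genes. Macrophages can both make and answer these interferons, and a low tonic signal is known to hold many of the response genes at a basal level in the absence of infection.

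The libraries held between 24294260 and 28120415 expected counts, and 3 counts corresponded to between 0.107 and 0.123 counts per 1e6 of the library (CPM). The overexpressed gene followed the labels in all 6 libraries. Ace had 101, 25.6 and 31.8 CPM in Tg-ACE replicates 1 to 3, against 16.7, 7.60 and 11.6 CPM in WT replicates 1 to 3, with no overlap. The macrophage genes Cd68 (1954 to 2219.9 CPM) and Csf1r (547 to 794 CPM) were high in every library. The female-specific transcript Xist had 331, 327, 454 and 431 CPM in the 4 Exp-156b libraries, against 0.527 CPM in Tg-ACE and 0.409 CPM in WT of Exp-156. The Y-linked gene Ddx3y had at most 0.107 CPM in Exp-156b, against 51.6 CPM in Tg-ACE and 48.0 CPM in WT of Exp-156. Code and the pattern of sex-linked genes therefore cannot be told apart.

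The cells held interferon response transcripts with next to no interferon transcripts. Of 18 genes for type I interferons found in the table, Ifnb1 and 14 others were listed at 0 in all 6 libraries. The other 3 (Ifna2, Ifnk and Ifnz) summed to 8 counts over all libraries, and none of the 18 had enough counts to be tested. The response genes themselves were read in every library, with 33 of the 34 above the filter on low counts. The exception was Ifi44, a gene induced by interferon, with 0.211, 0.279 and 0.329 CPM in Tg-ACE replicates 1 to 3, against 0.164, 0.462 and 0.199 CPM in WT replicates 1 to 3.

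Levels between genes were compared per length, as TPM, a length-scaled share of the library, computed from the counts and the merged exon length. Bst2, which encodes the membrane protein tetherin that holds virus particles on the cell, had the highest mean, 224 TPM. It was followed by Ifi27l2a with 144 TPM, Oas1a with 108 TPM and the receptor gene Ifnar2 with 103 TPM. At the low end, Ifit2 had 5.57 TPM, Ifit1 4.73 TPM, Ifi205 2.38 TPM and Ifi44 0.135 TPM. Neighbours in this order were often closer than the spread among libraries. Oas1a ranged from 87.8 to 128 TPM over the 6 libraries and Ifnar2 from 98.2 to 110.1 TPM. Ifi27l2a ranged from 71.5 to 259.5 TPM.

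RefSeq promoter sequences (GRCm38.p6) were available for 25 of the 34 genes. The core of the ISRE, GAAA, then any 2 bases, then GAAA, was searched on both strands in the 250 bases before the start. It was found for 10 of the 25 genes (40.0%), against 936 of 27025 genes with a promoter sequence (3.46%). The 10 were Bst2, Ifi205, Ifit1, Ifit3, Isg15, Oas1a, Oas3, Rsad2, Stat2 and Trim30a. A match is a description of the letters, and no factor binding was measured. The 4 windows below belong to response genes whose values in each library are given further on and show how the element is placed. Capitals mark the matches, each sequence runs 5′ to 3′ on the strand of its gene, and the windows lie at chr5:120907526-120907775 (minus strand) for Oas1a, chr19:34583279-34583528 (plus) for Ifit3, chr12:26456453-26456702 (minus) for Rsad2 and chr4:156200819-156201068 (minus) for Isg15.
Oas1a: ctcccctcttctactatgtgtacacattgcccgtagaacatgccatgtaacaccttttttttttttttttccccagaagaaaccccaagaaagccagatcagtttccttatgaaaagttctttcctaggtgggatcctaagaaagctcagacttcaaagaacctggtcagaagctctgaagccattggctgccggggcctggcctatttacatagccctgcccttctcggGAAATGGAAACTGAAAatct
Ifit3: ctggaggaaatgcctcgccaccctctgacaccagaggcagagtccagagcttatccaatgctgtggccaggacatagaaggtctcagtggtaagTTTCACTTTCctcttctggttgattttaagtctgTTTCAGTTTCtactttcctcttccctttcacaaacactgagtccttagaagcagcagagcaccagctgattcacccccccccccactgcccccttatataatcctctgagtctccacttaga
Rsad2: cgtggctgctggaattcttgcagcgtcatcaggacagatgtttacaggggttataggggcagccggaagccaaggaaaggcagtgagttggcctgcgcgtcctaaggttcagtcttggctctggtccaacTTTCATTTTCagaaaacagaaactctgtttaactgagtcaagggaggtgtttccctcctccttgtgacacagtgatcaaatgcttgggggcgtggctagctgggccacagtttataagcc
Isg15: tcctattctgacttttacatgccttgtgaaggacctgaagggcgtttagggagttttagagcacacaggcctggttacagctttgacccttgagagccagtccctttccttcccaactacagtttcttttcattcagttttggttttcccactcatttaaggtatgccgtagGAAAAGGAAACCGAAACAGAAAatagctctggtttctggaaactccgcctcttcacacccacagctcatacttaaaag
Oas1a has 2 matches that share 4 bases, beginning at positions -20 and -14 counted back from the start. Isg15 has 3 that overlap in a row from -78. In Ifit3 both matches are in the reverse orientation, the nearer at -122, and the match of Rsad2 at -120 is reversed too.

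Between genotypes, no interferon response gene passed the test when the experiment code was a term of the model. By the quasi-likelihood F test of edgeR, adjusted by the Benjamini-Hochberg method, 0 of the 33 tested members had an adjusted p under 0.05, against 2 of 12827 genes (0.0156%). DESeq2 and limma-voom also called 0 members. The overexpressed gene Ace was not called by edgeR either. Its fitted log2 fold change, Tg-ACE minus WT, was 1.95 (SE 0.23, edgeR adjusted p = 0.137). A gene without a call can therefore still differ between the genotypes. At an unadjusted p under 0.05, each of the 3 tools had 5 members (4.29% of all genes by DESeq2, 7.14% by limma-voom). By edgeR these were Usp18, Oas1a, Ifit3, Rsad2 and Rtp4, all with higher fitted levels in Tg-ACE, and over all genes 6.48% reached that p in either direction and 2.64% as higher. The fitted log2 fold change, Tg-ACE minus WT, was above 0 for 29 of the 33 with a median of 0.11, whereas 48.3% of all genes were above 0 with a median of -0.01. The count of 29 became 17 when either library of Exp-156 (Tg-ACE replicate 1 or WT replicate 1) was left out. The count of 5 members at an unadjusted p under 0.05 became 2 when either of those was left out (10.3% of all genes in each fit) or when WT replicate 3 was (5.12%). With Tg-ACE replicate 2 left out it was 3 (5.8% of all genes), with Tg-ACE replicate 3 left out 9 (4.97%), and with WT replicate 2 left out 16 (5.1%). Leaving out either Exp-156 library took the median to 0.02. It was 0.24 when Tg-ACE replicate 3 was left out, 0.27 when WT replicate 2 was and 0.06 when WT replicate 3 was. In these bulk samples, fewer cells of a type and less RNA per cell cannot be told apart.

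**Figure D1:**
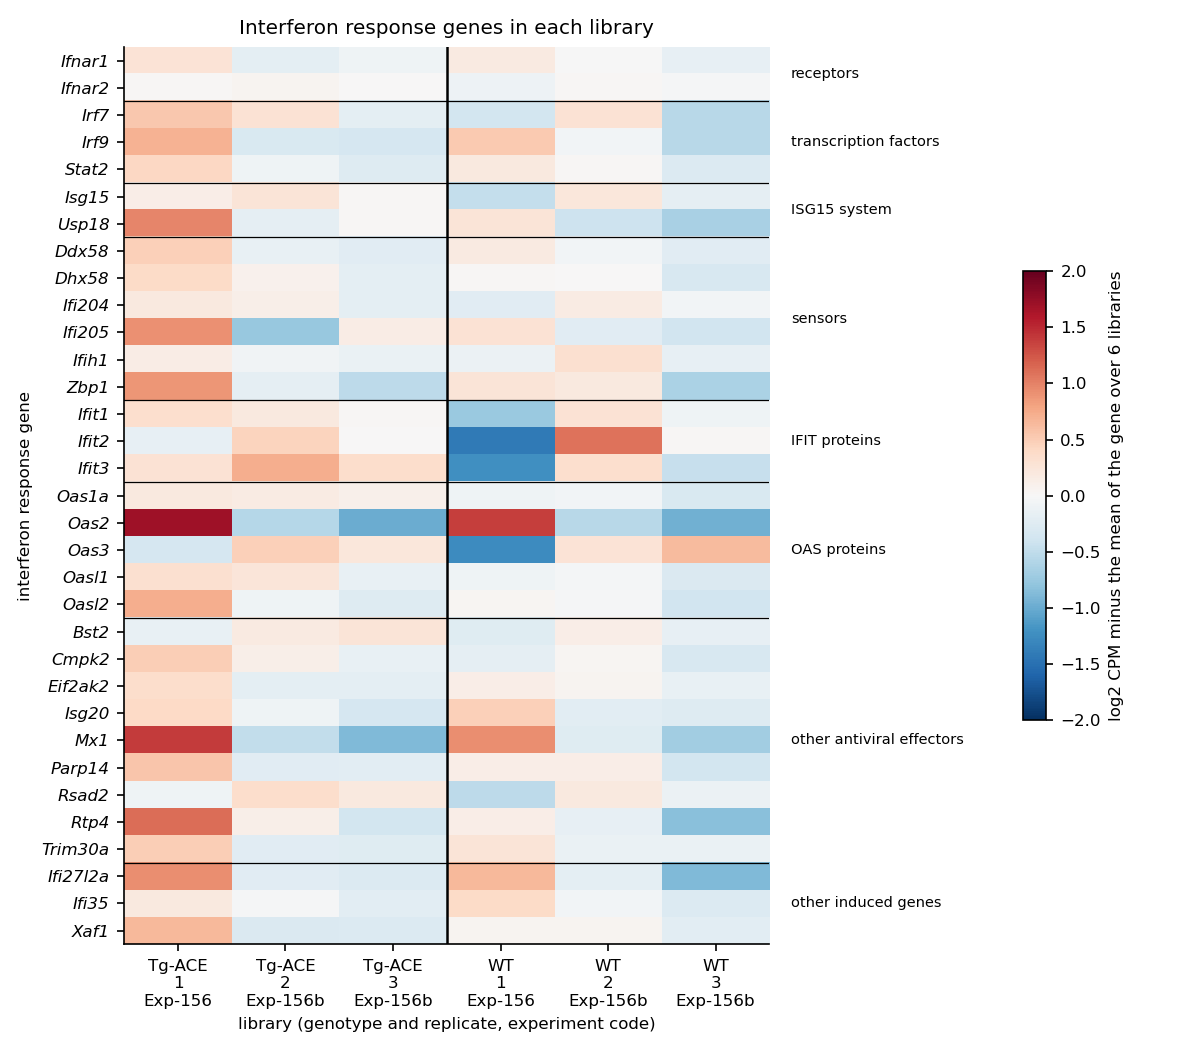
Level of the 33 tested interferon response genes (rows, ordered by role) in the 6 libraries (columns, genotype, replicate and experiment code), as log2 CPM minus the gene's mean over the 6 libraries. Tg-ACE replicate 1 has the highest level for 23 genes, and WT replicate 3 has the lowest for 15.

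Neither receptor gene passed the test between genotypes. Ifnar1 (chr16:91485238-91507441, GRCm38) had 161, 117 and 125 CPM in Tg-ACE replicates 1 to 3, against 150.3, 132 and 118 CPM in WT replicates 1 to 3. The groups overlapped, and the fitted log2 fold change was 0.00 (SE 0.07, edgeR adjusted p = 0.997). Ifnar2, which lies close by on chromosome 16, had 117, 119 and 114 CPM in Tg-ACE, against 106, 116 and 111 CPM in WT. Its groups overlapped as well, with a log2 fold change of 0.07 (SE 0.06, edgeR adjusted p = 0.847). Exons of Ifnar2 overlap those of the gene model Gm21970 on the same strand, so its reads can be divided.

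Among the factors that transmit the signal, Irf7, the amplifier of interferon alpha transcription, varied widely within each genotype. It had 64.9, 54.8 and 38.9 CPM in Tg-ACE, against 34.6, 54.6 and 30.6 CPM in WT. Tg-ACE replicate 1 stood highest and WT replicate 3 lowest, replicate 2 was nearly equal in both genotypes, and the groups overlapped (log2 fold change 0.39, SE 0.25, edgeR adjusted p = 0.817). Exons of Phrf1 overlap Irf7 on the opposite strand. Stat2, the ISGF3 subunit specific to type I and type III interferon signals, had 70.8, 49.9 and 44.2 CPM in Tg-ACE, against 60.6, 54.0 and 43.8 CPM in WT. In both genotypes the Exp-156 library was the highest, and the log2 fold change was 0.04 (SE 0.10, edgeR adjusted p = 0.956). Irf9, the DNA-binding subunit of ISGF3, had a log2 fold change of 0.03 (SE 0.12, edgeR adjusted p = 0.968).

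The ISG15 system attaches the ubiquitin-like protein ISG15 to other proteins, and USP18 removes it and also blocks signalling at IFNAR2. Usp18 (ENSMUSG00000030107.10, chr6:121245906-121270917) had 14.2, 6.30 and 7.24 CPM in Tg-ACE, against 8.55, 5.36 and 4.53 CPM in WT. Tg-ACE was higher in the Exp-156 pair, and both Tg-ACE libraries of Exp-156b were above both WT libraries of that code. Over all 6 libraries the groups overlapped, and the log2 fold change of 0.55 (SE 0.14) had an unadjusted p of 0.00468, the smallest among the members, and an adjusted p of 0.706 by edgeR. Some reads of Usp18 match other transcripts, and exons of Gm44148 overlap it on the opposite strand. Isg15 had 7.70, 8.41 and 7.15 CPM in Tg-ACE, against 5.03, 8.24 and 6.20 CPM in WT, with overlap and a log2 fold change of 0.27 (SE 0.18, edgeR adjusted p = 0.818).

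None of the 6 sensor genes, whose products recognise viral RNA or cytosolic DNA, separated the genotypes. Ifi204, a DNA sensor of the p200 family, had 104, 99.4 and 79.4 CPM in Tg-ACE, against 78.7, 103 and 87.7 CPM in WT. Dhx58, encoding the RNA helicase LGP2, had 45.4, 36.8 and 30.1 CPM in Tg-ACE, against 34.9, 34.8 and 27.7 CPM in WT. Ifi205, another p200 gene, had 5.80, 1.75 and 3.37 CPM in Tg-ACE, against 3.72, 2.59 and 2.31 CPM in WT. All 3 overlapped between genotypes. The log2 fold changes of the sensors ran from -0.05 for Ifih1, encoding the RNA sensor MDA5, to 0.27 for Ifi205, and their edgeR adjusted p-values were 0.806 or more. Ifi204 and Ifi205 belong to a family of near-identical copies and carry divided reads, so their values are uncertain.

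The IFIT genes, whose proteins bind viral RNA lacking host cap marks, form a cluster on chromosome 19 between Ifit2 (chr19:34550694-34576419) and Ifit1 (chr19:34640871-34650009). They were low and uneven. Ifit3 had 5.38, 7.29 and 5.63 CPM in Tg-ACE, against 1.84, 5.54 and 3.18 CPM in WT. Both Tg-ACE libraries of Exp-156b stood above both WT libraries of that code, yet Tg-ACE replicate 1 was below WT replicate 2, so that the genotypes overlapped. The log2 fold change of 0.85 (SE 0.28) was the largest among the members, with an unadjusted p of 0.0178 and an adjusted p of 0.76 by edgeR. Ifit1 had 5.10, 4.62 and 4.11 CPM in Tg-ACE, against 2.37, 4.97 and 3.78 CPM in WT, and its log2 fold change was 0.35 (SE 0.26, edgeR adjusted p = 0.837). Ifit2 had 5.73, 8.73 and 6.41 CPM in Tg-ACE, against 2.37, 13.8 and 6.56 CPM in WT, where replicates 1 and 2 held the lowest and the highest of all values. Its log2 fold change was 0.05 (SE 0.39, edgeR adjusted p = 0.984). Ifit1 and Ifit3 have close paralogs, and part of their reads was divided between genes.

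Oas1a (ENSMUSG00000052776.10, chr5:120896256-120907521), whose product makes the 2′,5′-linked oligoadenylates that activate RNase L, was the member whose genotypes did not overlap. It had 76.5, 75.2 and 71.9 CPM in Tg-ACE, against 62.9, 64.1 and 54.1 CPM in WT. All 3 Tg-ACE libraries were above all 3 WT libraries, by 0.28 on the log2 scale in the Exp-156 pair and by 0.32 in Exp-156b. The fitted log2 fold change was 0.30 (SE 0.08), with an unadjusted p of 0.00501 and an adjusted p of 0.715 by edgeR. This was 1 member of 33 that was higher without overlap, against 2.38% of all genes, and 0 members were lower without overlap, against 2.53% of all genes. Oas1a also has near-identical neighbours in its cluster, and its counts were not whole numbers. Oasl1, which encodes an OAS-like protein without synthetase activity that limits translation of Irf7, had 25.9, 24.5 and 18.7 CPM in Tg-ACE, against 19.6, 20.2 and 16.9 CPM in WT. Those groups overlapped (log2 fold change 0.28, SE 0.12, edgeR adjusted p = 0.767). Oas2, Oas3 and Oasl2 had log2 fold changes of 0.11, 0.20 and 0.24, with edgeR adjusted p-values of 0.817 or more.

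The other antiviral effectors were mixed. Rsad2, encoding viperin, which makes a chain-terminating nucleotide from CTP, had 26.6, 36.0 and 32.5 CPM in Tg-ACE, against 19.6, 32.2 and 26.0 CPM in WT. Tg-ACE was above WT within each code, although the groups overlapped over all 6 libraries (log2 fold change 0.30, SE 0.10, unadjusted p = 0.0184, adjusted p = 0.76 by edgeR). Cmpk2, the mitochondrial nucleotide kinase gene next to Rsad2, had a log2 fold change of 0.31 (SE 0.17, edgeR adjusted p = 0.79). Rtp4, a receptor transporter gene induced by interferon, had 22.0, 10.9 and 7.81 CPM in Tg-ACE, against 11.1, 9.05 and 5.60 CPM in WT. Tg-ACE replicate 1 stood apart at the top, and the other 5 libraries were intermixed (log2 fold change 0.57, SE 0.23, unadjusted p = 0.0357, adjusted p = 0.76 by edgeR). Parp14, an ADP-ribosyltransferase gene, had 118, 69.3 and 70.1 CPM in Tg-ACE, against 88.6, 88.7 and 62.6 CPM in WT, with overlap and a log2 fold change of 0.06 (SE 0.15, edgeR adjusted p = 0.951). The remaining effectors, Mx1, Isg20, Eif2ak2 (encoding the kinase PKR), Bst2 and Trim30a, had log2 fold changes between -0.02 and 0.19, with edgeR adjusted p-values of 0.784 or more.

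In the last group, Ifi27l2a (encoding a small protein strongly induced by interferon) had 38.2, 17.1 and 16.5 CPM in Tg-ACE, against 31.5, 17.4 and 10.8 CPM in WT. Its log2 fold change was 0.26 (SE 0.15, edgeR adjusted p = 0.797), and the 2 Exp-156 libraries were well above the other 4. Ifi35 had 28.1, 23.9 and 21.1 CPM in Tg-ACE, against 32.0, 23.4 and 20.2 CPM in WT, with a log2 fold change of -0.04 (SE 0.10, edgeR adjusted p = 0.955). Xaf1, a pro-apoptotic gene, had a log2 fold change of 0.06 (SE 0.18, edgeR adjusted p = 0.958).

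**Figure D2:**
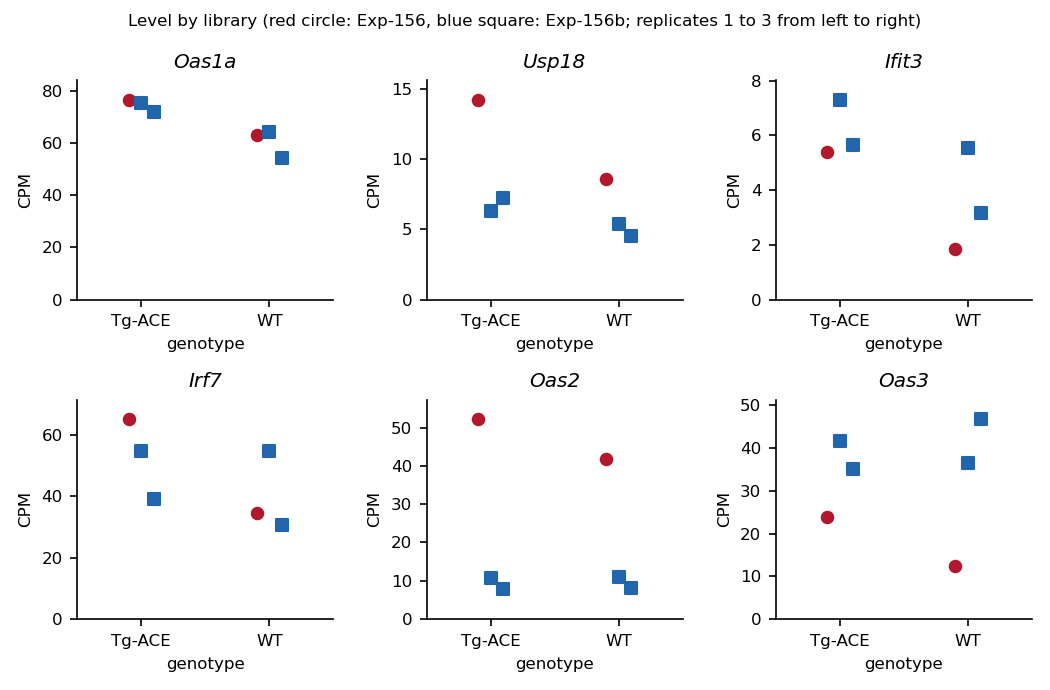
CPM of 6 interferon response genes by genotype, 1 point per library, with Exp-156 as red circles and Exp-156b as blue squares. Oas1a is higher in all 3 Tg-ACE libraries (71.9 to 76.5 CPM, against 54.1 to 64.1 CPM in WT), while Oas2 and Oas3 separate by code in opposite directions.

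The genotype difference took other values in each code. In Exp-156, which has 1 library of each genotype and so no replicate check, Tg-ACE was above WT for 31 of the 33 genes with a median log2 difference of 0.41, whereas 48.7% of all genes were above with a median of -0.01. Ifit3 (1.51), Ifit2 (1.25), Ifit1 (1.08), Rtp4 (0.98), Oas3 (0.92) and Irf7 (0.91) had the widest differences, and Isg20 (-0.08) and Ifi35 (-0.19) were the genes below 0. Neutrophil and eosinophil markers summed to 148 and 98.3 CPM in the Tg-ACE library of that pair, against 475 and 241 CPM in the WT library. Most of the neutrophil sums came from 1 gene, Retnlg (129 CPM in Tg-ACE and 438 CPM in WT). Ccr3 (55.3 and 146 CPM) and Siglecf (32.4 and 75.5 CPM) made up most of the eosinophil sums. The part of these cells in the difference was not tested. In Exp-156b, with 2 libraries of each genotype, Tg-ACE was above WT for 17 of the 33 genes and below for 16, with a median of 0.01 and a range from -0.34 for Ifit2 to 0.60 for Ifit3. Of all genes, 48.3% were above 0 there. Both Tg-ACE libraries of Exp-156b were above both WT libraries for 5 members (Usp18, Ifit3, Oas1a, Rsad2 and Bst2), against 22.3% of all genes, and below for 3 (Xaf1, Trim30a and Eif2ak2), against 22.5% of all genes. The sign was the same in both codes for 15 members, against 46.2% of all genes.

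**Figure D3:**
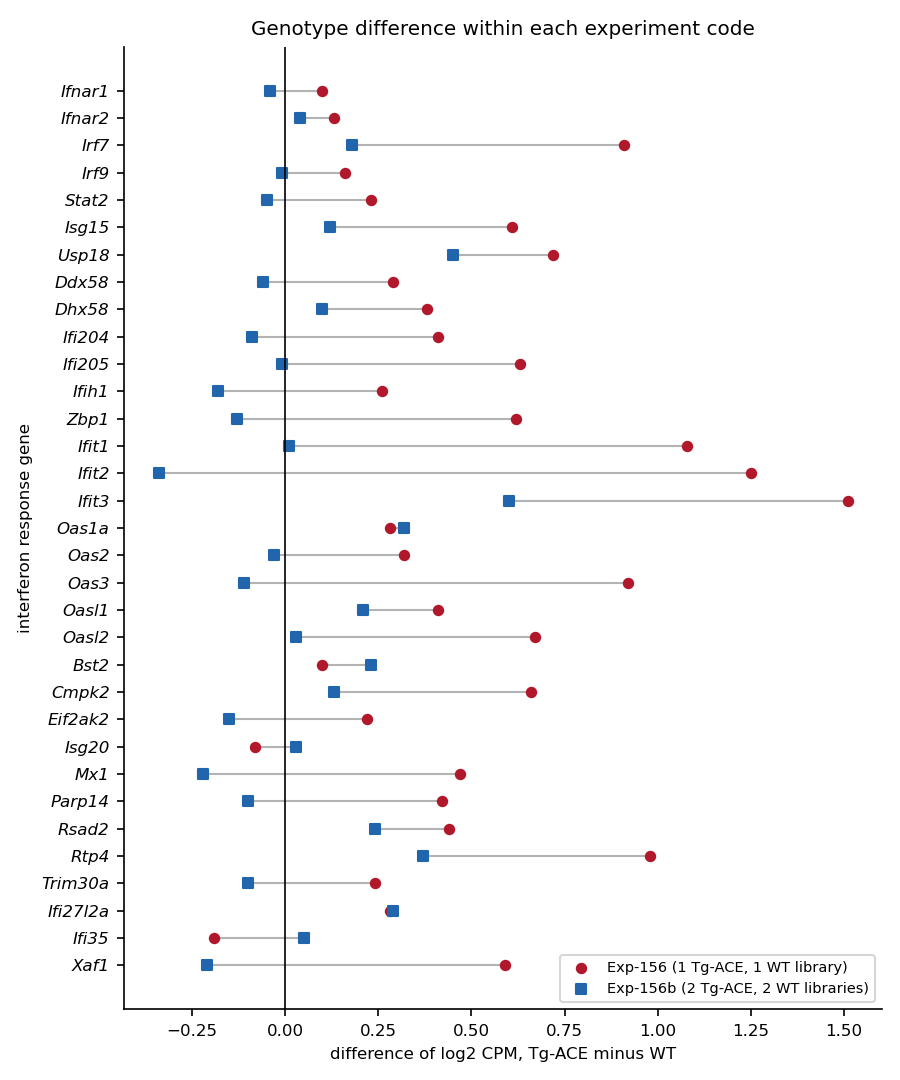
Difference of log2 CPM, Tg-ACE minus WT, for each of the 33 tested genes within Exp-156 (red circles, 1 library per genotype) and within Exp-156b (blue squares, 2 libraries per genotype). The Exp-156 points lie above 0 for 31 genes, and the Exp-156b points for 17.

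The response genes also moved together between libraries of the same genotype. WT replicate 2 was above WT replicate 3 for 31 of the 33 genes, with a median log2 difference of 0.31, against 49.8% of all genes. Ifit2 (1.06), Irf7 (0.83), Zbp1 (0.83, the Z-nucleic acid sensor) and Ifit3 (0.79) had the widest differences, and Oas3 was lower in WT replicate 2 (-0.36). Tg-ACE replicate 2 was above Tg-ACE replicate 3 for 26 genes, with a median of 0.17, against 49.6% of all genes. Between genotypes in Exp-156b, the values depended on which WT library was used. Against WT replicate 3, the median was 0.29 for Tg-ACE replicate 2 and 0.12 for Tg-ACE replicate 3, with 27 and 23 genes above 0 (50.0% and 49.9% of all genes). Against WT replicate 2, the medians were -0.02 and -0.20, with 15 and 6 genes above 0 (47.9% and 51.3% of all genes). Marker sums also differed between these libraries. In WT replicates 2 and 3 they were 22083 and 18492 CPM for macrophages, 174 and 127 CPM for plasmacytoid dendritic cells and 56.9 and 129 CPM for B cells. In Tg-ACE replicates 2 and 3 they were 727 and 1201 CPM for monocytes and 234 and 481 CPM for mesothelial cells and fibroblasts. Their part in the differences of the response genes was not tested.

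**Figure D4:**
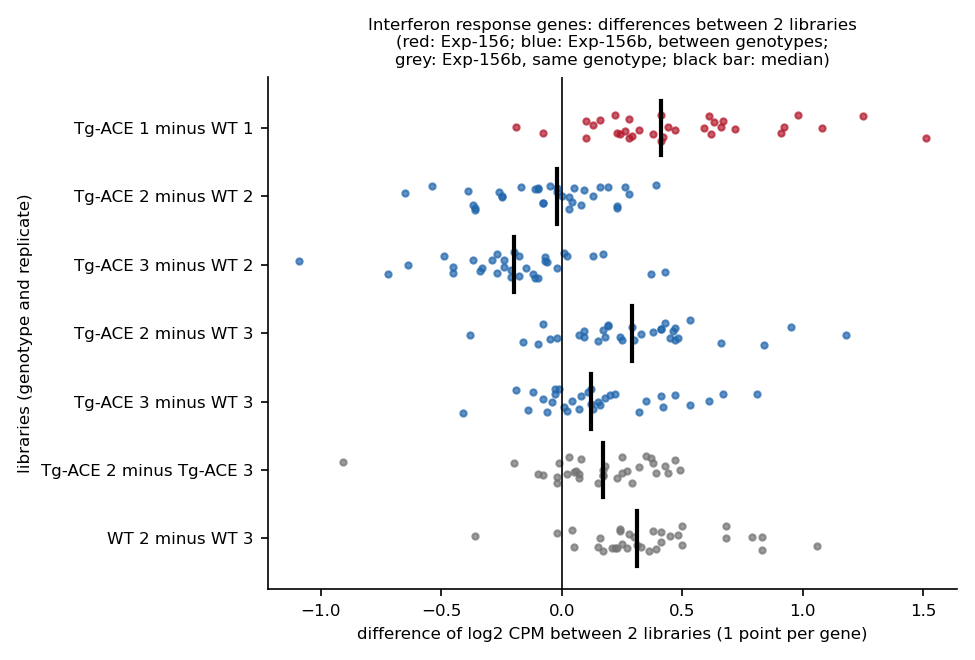
Difference of log2 CPM between 2 libraries of the same experiment code, 1 point per interferon response gene (33 genes per row), with the median as a black bar. The red row (Exp-156, Tg-ACE minus WT) has a median of 0.41, the 4 blue rows (Exp-156b, Tg-ACE minus WT) range from -0.20 to 0.29, and the grey rows compare libraries of 1 genotype (0.17 in Tg-ACE, 0.31 in WT).

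The difference in the genotype effect between the codes was itself tested as an interaction, Exp-156 minus Exp-156b. The edgeR test called 0 of the 33 members and 0 of 12827 genes (0%) at an adjusted p under 0.05, and DESeq2 and limma-voom called 0 members. At an unadjusted p under 0.05, edgeR had 6 members, DESeq2 3 (3.03% of all genes) and limma-voom 5 (7.54% of all genes). The 6 were Oas3 (1.04, unadjusted p = 0.00732), Xaf1 (0.81), Trim30a (0.34), Ifit1 (1.11), Oasl2 (0.66) and Ifit2 (1.70, unadjusted p = 0.0466), all with the larger value of Tg-ACE minus WT in Exp-156. Within Exp-156b that difference was below 0 for Oas3 (-0.11), Xaf1 (-0.21), Trim30a (-0.10) and Ifit2 (-0.34). It was 0.01 for Ifit1 and 0.03 for Oasl2. The edgeR adjusted p-values of the 6 interactions were 0.647 or more. Of all genes, 7.65% reached this p in either direction, and 3.50% with the larger value in Exp-156. Without WT replicate 3 the count of 6 became 16 (7.65% of all genes in that fit), and without Tg-ACE replicate 3 it became 3 (6.41%). The spread in this test came from the 4 Exp-156b libraries alone, and single Exp-156 libraries were assumed to vary like them.

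The experiment code went with much wider changes than the genotype. In the same edgeR model, 21 of the 33 tested members differed between Exp-156b and Exp-156 at an adjusted p under 0.05, as did 42.9% of all tested genes. Of the members, 3 were higher in Exp-156b, against 20.0% of all genes, and 18 were lower, against 23.0% of all genes. The median log2 fold change of the 33 members, Exp-156b minus Exp-156, was -0.37, and that of all genes was -0.01. Without Tg-ACE replicate 1 the median was -0.18 and 10 members were called, against 26.3% of all genes in that fit. Without WT replicate 1 the median was -0.50 and 16 members were called, against 26.4% of all genes. In each case the other library of Exp-156 stood alone. Of the 21, 7 were called with any 1 library left out: Oas2, Mx1, Ifi27l2a, Usp18, Irf9, Trim30a and Oas3.

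The widest decreases were in Oas2 and Mx1. Oas2 (chr5:120730333-120749853), another oligoadenylate synthetase gene, had 10.8 and 7.98 CPM in Tg-ACE and 10.9 and 8.23 CPM in WT libraries of Exp-156b, against 52.1 CPM in Tg-ACE and 41.8 CPM in WT of Exp-156. It fell by 2.30 on the log2 scale (SE 0.15, edgeR adjusted p = 4.2e-05), and the codes did not overlap. Mx1, a gene of the dynamin-like GTPase family, had 4.42 and 3.37 CPM in Tg-ACE and 5.29 and 3.86 CPM in WT libraries of Exp-156b. In Exp-156, Mx1 had 16.7 CPM in Tg-ACE and 12.0 CPM in WT. It too fell without overlap, by 1.75 (SE 0.21, edgeR adjusted p = 5.7e-04).

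Oas3 (chr5:120753098-120777661), the long oligoadenylate synthetase gene next to Oas2, ran the other way. It had 41.7 and 35.1 CPM in Tg-ACE and 36.5 and 46.7 CPM in WT libraries of Exp-156b, against 23.8 CPM in Tg-ACE and 12.5 CPM in WT of Exp-156. It rose without overlap (log2 fold change 1.16, SE 0.23, edgeR adjusted p = 0.00566), and the value was 1.73 without Tg-ACE replicate 1 and 0.68 without WT replicate 1. Rsad2 (0.46, edgeR adjusted p = 0.0117) and Bst2 (0.31, edgeR adjusted p = 0.0308) were the other members that rose. Rsad2 was not called without WT replicate 1, and Bst2 was called only without WT replicate 3.

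**Figure D5:**
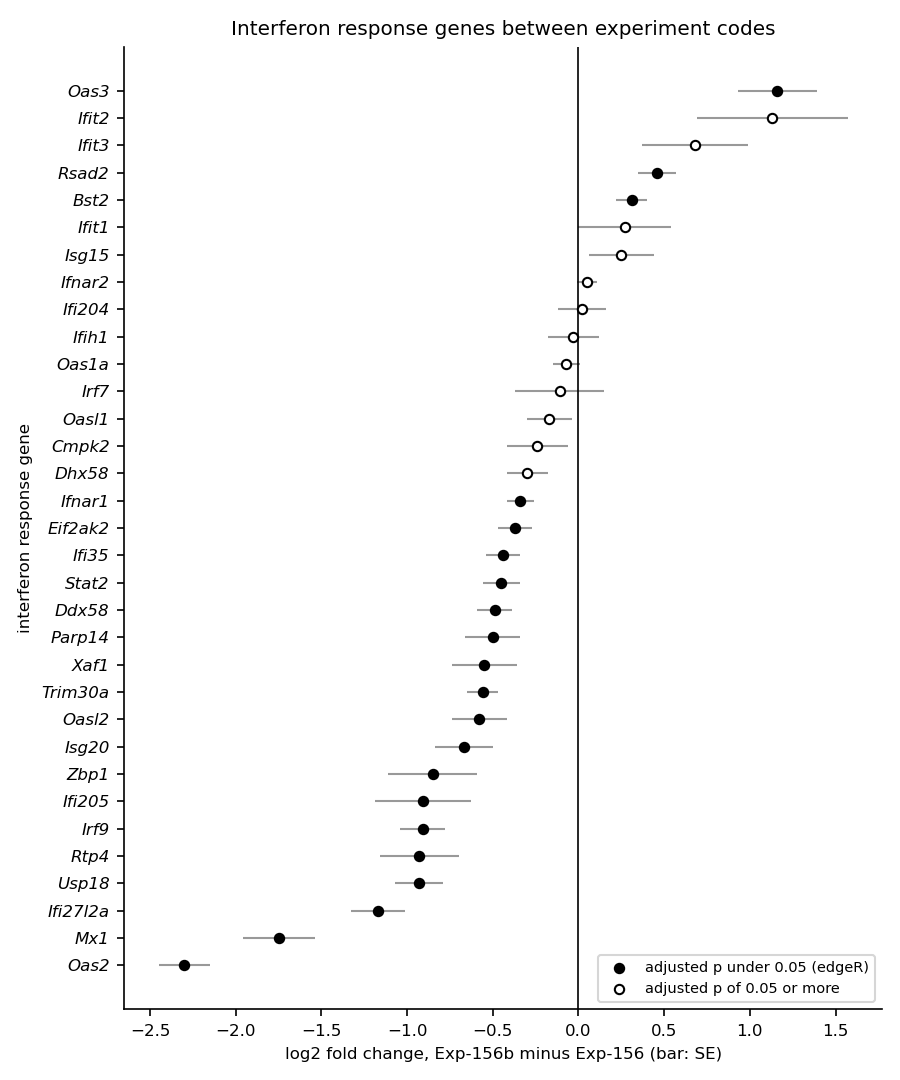
Log2 fold change between experiment codes, Exp-156b minus Exp-156, with its standard error for the 33 tested interferon response genes, from the edgeR model with genotype as a term. Filled points have an adjusted p under 0.05, and they run from -2.30 for Oas2 to 1.16 for Oas3.

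The remaining 16 members that were lower in Exp-156b came from every group but the IFIT genes. Ifi27l2a fell by 1.17 (edgeR adjusted p = 9.7e-04), Usp18 by 0.93 (edgeR adjusted p = 0.00174), Rtp4 by 0.93 (edgeR adjusted p = 0.0139) and Irf9 by 0.91 (edgeR adjusted p = 0.00117). Irf9 had 34.4 and 33.8 CPM in Tg-ACE and 40.8 and 28.9 CPM in WT libraries of Exp-156b, against 68.4 CPM in Tg-ACE and 61.3 CPM in WT of Exp-156, without overlap. Reads of Irf9 may in part belong to Rnf31, whose exons overlap it on the same strand. The others were Stat2, Ifnar1, Ddx58 (encoding the RNA sensor RIG-I), Zbp1, Ifi205, Oasl2, Isg20, Parp14, Eif2ak2, Trim30a, Ifi35 and Xaf1, with decreases between 0.34 for Ifnar1 and 0.91 for Ifi205. Ddx58, Ifi205, Oasl2, Parp14, Eif2ak2, Rtp4, Xaf1 and Zbp1 lost the call without Tg-ACE replicate 1, where their log2 fold changes were -0.31, -0.60, -0.24, -0.23, -0.18, -0.60, -0.13 and -0.43 in that order, and Stat2, Ifnar1 and Isg20 lost it there too. Isg20, Ifi205 and Ifi35 lost it without WT replicate 1. Leaving out Tg-ACE replicate 2 or Tg-ACE replicate 3 lost the calls of Oasl2, Zbp1, Xaf1, Parp14, Eif2ak2 and Bst2, and leaving out WT replicate 3 those of Isg20, Zbp1, Xaf1, Ifi205, Parp14 and Eif2ak2. Without WT replicate 1, Oasl2 was at -0.90, Xaf1 at -0.95 and Parp14 at -0.77. Ifit2 (1.13, SE 0.44) and Ifit3 (0.68, SE 0.31) had higher values in Exp-156b, with edgeR adjusted p-values of 0.0725 and 0.113, and Ifit2 was called without Tg-ACE replicate 1 or WT replicate 2. All 4 Exp-156b libraries lay above both Exp-156 libraries for 2 members, against 28.9% of all genes, and below them for 16, against 30.9% of all genes.

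Members whose window before the start held the ISRE core and members without it had different medians between codes. Their log2 fold changes overlapped, from -0.91 to 1.16 with the core and from -0.91 to 1.13 without it. The 9 members with no promoter sequence were left out. Among them were Oas2 (-2.30) and Mx1 (-1.75), the widest decreases of all members. The median log2 fold change, Exp-156b minus Exp-156, was 0.26 for the 10 tested members with the core, which include the higher Oas3, Rsad2 and Bst2 as well as the lower Stat2, Trim30a and Ifi205, and -0.35 for the 14 tested members with a promoter sequence but no match. Within Exp-156, the median difference of Tg-ACE minus WT was 0.53 for the 10 and 0.28 for the 14. These medians describe small sets and were not tested.

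Markers of other cell types moved with the code too. The monocyte and small peritoneal macrophage list, 7 genes led by Fn1, summed to 727 and 1201 CPM in Tg-ACE and 1134 and 1159 CPM in WT libraries of Exp-156b, against 4618 CPM in Tg-ACE and 3833 CPM in WT of Exp-156. In the edgeR model 5 of the 7 were lower in Exp-156b, against 23.0% of all genes, and 1 (Itgal) was higher, against 20.0%. The macrophage list, with 9 rows for 8 genes, summed to between 18144 and 22083 CPM over all libraries. Of its 9 rows, 6 were lower in Exp-156b, against 23.0% of all genes. The large peritoneal macrophage list had 6 of 7 genes lower, against 23.0% of all genes, its defining factor Gata6 being the 1 that was higher. The plasmacytoid dendritic cell list is for the cells that make the most interferon alpha. Of its 5 tested genes, 3 (Ccr9, Runx2 and Tcf4) were lower in Exp-156b, against 23.0% of all genes. Cox6a2 alone was higher (1.52, edgeR adjusted p = 0.0111), against 20.0% of all genes. The list summed to between 124 and 174 CPM in Exp-156b, against 185 CPM in Tg-ACE and 145 CPM in WT of Exp-156. Most of that sum came from Lair1, with 84.7 to 136 CPM in Exp-156b, against 126 CPM in Tg-ACE and 90.2 CPM in WT of Exp-156, and no call. Siglech, too low to be tested, was at 0.123 CPM or less in Exp-156b, against 3.52 CPM in Tg-ACE and 4.17 CPM in WT of Exp-156. The part of these cells in the changes of the response genes was not tested.

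Among the other lists, the conventional dendritic cell markers summed to between 9.76 and 13.4 CPM in Exp-156b, against 60.1 CPM in Tg-ACE and 81.9 CPM in WT of Exp-156. Neutrophil markers summed to between 11.0 and 15.4 CPM in Exp-156b, against 148 CPM in Tg-ACE and 475 CPM in WT of Exp-156, and eosinophil markers to between 10.3 and 21.2 CPM, against 98.3 CPM in Tg-ACE and 241 CPM in WT. Most of the neutrophil sum in Exp-156 was Retnlg, with 129 CPM in Tg-ACE and 438 CPM in WT. Of 4 tested neutrophil genes, 2 (Retnlg and S100a9) were lower in Exp-156b, against 23.0% of all genes. S100a8 was not called (-0.15, edgeR adjusted p = 0.442). Ly6g had at most 0.0409 CPM in any library. Most of the eosinophil sum was Ccr3 and Siglecf, and 3 of its genes were under 1 CPM in all libraries. T and NK cell markers reached at most 7.21 CPM in Exp-156b, against 14.8 CPM in Tg-ACE and 18.7 CPM in WT of Exp-156, and B cell markers lay between 56.9 and 129 CPM over all 6 libraries. Mesothelial and fibroblast markers were the list with 5 of 6 genes higher in Exp-156b, against 20.0% of all genes. No marker was at 0 in all 6 libraries, and no marker of any list passed the genotype test.

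The rest of the pathway gave 0 calls between genotypes. Of 12 genes for JAK-STAT transduction and its inhibitors, 9 were below 0 in the fitted log2 fold change and 3 above, with a median of -0.02. Jak1 was the most abundant, with 296, 335 and 315 CPM in Tg-ACE, against 293, 331 and 324 CPM in WT. Jak2, with the smallest p of that list, had a log2 fold change of -0.09 (SE 0.09, edgeR adjusted p = 0.865). At an unadjusted p under 0.05 by edgeR there were 0 genes in this list, and 0 of the 3 tested genes for other interferons and their receptors, where Il10rb led with a log2 fold change of 0.08 (edgeR adjusted p = 0.848).

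A list of 9 tested genes for interferon regulatory factors and their binding partners had 1 gene at an unadjusted p under 0.05, against 6.48% of all genes. It was Irf2bp1, which encodes a partner of IRF2 in repression and not a factor of the family itself. It had 24.9, 25.5 and 25.9 CPM in Tg-ACE, against 23.8, 20.7 and 20.9 CPM in WT, without overlap, and a log2 fold change of 0.23 (SE 0.08, edgeR adjusted p = 0.76). The most abundant of the list, Irf5, had -0.05 (edgeR adjusted p = 0.911). Among 19 genes for nucleic acid sensing, Traf3, an adaptor upstream of interferon induction, had 38.6, 39.7 and 38.1 CPM in Tg-ACE, against 43.9, 41.8 and 46.3 CPM in WT. All 3 Tg-ACE libraries were below all 3 WT libraries (log2 fold change -0.18, SE 0.07, edgeR adjusted p = 0.76). Unc93b1, which carries nucleic acid-sensing Toll-like receptors to endosomes and was the most abundant, had 0.03 (edgeR adjusted p = 0.959).

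A wider list of 53 tested interferon-stimulated genes outside the 34 had a median log2 fold change of 0.02 between genotypes, with 30 above 0 (48.3% of all genes) and 23 below. Inside Exp-156 its median difference was 0.22, inside Exp-156b it was -0.07, and 3 of the 53 reached an unadjusted p under 0.05 by edgeR, against 6.48% of all genes. Lgals3bp, its most abundant gene, had 391, 559.9 and 510.0 CPM in Tg-ACE, against 271, 587 and 435 CPM in WT, with overlap. Tor3a, an ATPase gene, had the smallest p of this list, with a log2 fold change of 0.17 (SE 0.07, edgeR adjusted p = 0.76). Between codes, 24 of the 53 were lower in Exp-156b, against 23.0% of all genes, and 4 were higher, against 20.0% of all genes, and Lgals3bp (0.68, edgeR adjusted p = 0.00882) and Tor3a (0.56, edgeR adjusted p = 7.7e-04) were among the 4.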

How the data were processed

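Expected counts for each gene and library, without normalization, were deposited in a single table by the authors. The submitters' processing notes name STAR 2.5.0, RSEM 1.2.25, mm10 and GRCh38 without their roles. Which strand setting was used in counting is not stated in the labels. Libraries were stranded poly-A preparations read as single 75-base reads, per the labels' protocols. Between 11.0% and 11.4% of the deposited values were not whole, since RSEM divides reads that match several genes, and all were rounded to counts. The 92 spike-in rows (1 count in all) were left out, and 0 columns were outside the labels. No 2 libraries were identical or within sampling noise (mean chi-square per gene at least 13.5).

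Groups came from sample titles and codes from descriptions. The series' design line writes Tg-NKO for the transgenic group, and the sample labels were used. The main fit was edgeR 4.0.16 (R 4.3.3) with its quasi-likelihood F test on TMM-scaled counts, experiment code and genotype as terms, the filterByExpr filter (12827 genes) and Benjamini-Hochberg adjustment at 0.05 over all of them. The interaction of code and genotype was fitted the same way. Standard errors were obtained as the log2 fold change over the root of its F statistic. CPM use TMM-scaled library sizes, and differences of log2 CPM use a prior count of 2. TPM and positions use GENCODE vM21 (GRCm38), in which 25251 identifiers matched. DESeq2 1.42.0, limma 3.58.1 (voom), other scalings and filters, genotype alone, a replicate block, Exp-156b alone and each library left out were alternatives. The fits were tested on simulated data. There the interaction test found a smaller share of the changes than the genotype test. A gene without an interaction call can therefore still differ in its genotype effect between codes. Same-numbered libraries of both genotypes deviated together from their group means (correlations over genes 0.856, 0.484 and 0.637), and a replicate block was fitted as an alternative. The crossed pairs within Exp-156b gave 0.614 and 0.539, so there the numbers show no pairing beyond the code, which is the term of the main fit. The biological coefficient of variation was 0.108 with the code as a term and 0.310 without.

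The members, gene lists and marker lists were chosen with earlier results of these data known. Values in all 6 libraries are given for both receptor genes and, in each role group, for the 2 members with the smallest p between genotypes and the one with the highest mean CPM (19 members). Genes named in the comparison of codes or of single libraries were chosen after their values were seen. In each further list, the most abundant gene and the one with the smallest p are named. Promoters were printed for up to 4 of the 19 with the smallest p and a match.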

Additional observations from a re-analysis of the deposited data

Results flagged for a closer look

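Xaf1, Trim30a and Eif2ak2 had Tg-ACE above WT in Exp-156 (log2 differences of 0.59, 0.24 and 0.22) while both Tg-ACE libraries of Exp-156b were below both WT libraries (mean log2 differences of -0.21, -0.10 and -0.15). The difference between the codes, Exp-156 minus Exp-156b, was 0.81 for Xaf1, 0.34 for Trim30a and 0.37 for Eif2ak2. The edgeR interaction test gave adjusted p-values of 0.647, 0.647 and 0.66, so these differences did not pass. In the 2 Exp-156 libraries there is 1 sample of each genotype. The expected counts of Xaf1, Trim30a and Eif2ak2 were divided and not whole in each of the 6 libraries. Exons of Gm26637 overlap Eif2ak2 on the opposite strand. Tg-ACE above WT in Exp-156 and below in Exp-156b held for 16 of the 33 tested members, and for 27.1% of all genes.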

How the results depend on the processing

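Between genotypes, 0 members were called under every alternative run. Over all genes the count of 2 was 38 by DESeq2, 9 with no filter on low counts and 0 with genotype alone. It stayed between 2 and 3 with each library left out. The replicate block gave 2 genes, 0 members and a median member log2 fold change of 0.13, and changed no call. For the interaction, edgeR's 0 genes became 13 by DESeq2 and between 0 and 14 with each Exp-156b library left out (14 without WT replicate 3), and it could not be estimated without an Exp-156 library. Between codes, leaving out each library gave between 3406 and 5263 genes (3406 without Tg-ACE replicate 1), between 10 and 22 members and a median between -0.50 and -0.18.

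The genotype differences of 18 members changed sign under at least 1 alternative, all without a call. With upper-quartile factors Isg20 was 0.01, and Ifit2 was -0.07 by limma-voom and -0.12 with genotype alone. In Exp-156b alone, values below 0 in place of above were Ifit1 -0.01, Ifit2 -0.43, Mx1 -0.23, Oas2 -0.03, Oas3 -0.11, Irf9 -0.04, Stat2 -0.06, Ddx58 -0.06, Zbp1 -0.18, Xaf1 -0.22, Ifi204 -0.09, Trim30a -0.10, Parp14 -0.12 and Ifnar1 -0.05, and those above 0 in place of below were Isg20 0.03 and Ifi35 0.04. Leaving out each library in turn gave a range from -0.00 to 0.58 for Ifit1, -0.43 to 0.61 for Ifit2, -0.09 to 0.05 for Isg20, -0.23 to 0.24 for Mx1, -0.04 to 0.26 for Oas2 and -0.11 to 0.41 for Oas3. It gave -0.08 to 0.20 for Irf9, -0.06 to 0.16 for Stat2, -0.20 to 0.15 for Ifih1, -0.06 to 0.14 for Ddx58, -0.18 to 0.45 for Zbp1 and -0.22 to 0.22 for Xaf1. It gave -0.09 to 0.22 for Ifi204, -0.12 to 0.04 for Ifi35, -0.10 to 0.06 for Trim30a, -0.12 to 0.27 for Parp14, -0.15 to 0.07 for Eif2ak2 and -0.05 to 0.06 for Ifnar1. Another 12 members kept their sign but moved by over 1.5 times with at least 1 library left out. Their ranges were 0.13 to 0.74 for Irf7, 0.56 to 1.23 for Ifit3, 0.35 to 0.86 for Rtp4, 0.06 to 0.54 for Ifi205, 0.11 to 0.45 for Isg15, 0.02 to 0.42 for Oasl2, 0.13 to 0.48 for Cmpk2, 0.10 to 0.47 for Ifi27l2a, 0.10 to 0.32 for Dhx58, 0.18 to 0.41 for Oasl1, 0.10 to 0.26 for Bst2 and 0.04 to 0.10 for Ifnar2. Leaving out 1 Exp-156 library leaves its partner to the code term, so the genotype value then comes from Exp-156b. The cause of the other changes was not tested.

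Exp-156 has 1 library per genotype, so its own spread is not known. Expected counts carry an extra error for the 11 members with divided reads.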
